A study of Mus musculus with 8 samples.

Results

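The imprinted domain of *Kcnq1ot1* on mouse chromosome 7 was followed through 10 listed genes, *Ascl2*, *Cd81*, *Tssc4*, *Kcnq1*, *Kcnq1ot1*, *Cdkn1c*, *Slc22a18*, *Phlda2*, *Nap1l4* and *Osbpl5*, of 48440 genes in the count files. The genes were listed by name and position, and the domain was selected on the measured level of *Cdkn1c*, which was low in *Tbxt* Δexon6/Δexon6 cells. The comparison of those cells with wild-type is therefore a description, without a test. All 10 genes passed the filter on low counts, which left 17049 tested genes, but *Kcnq1* had fewer than 10 reads in both *Tbxt* Δexon6/Δexon6 libraries and passed through the other groups.

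RNA came from mouse ES cells of the MK6 line, derived from the C57BL/6J strain, at day 1 of in vitro differentiation towards a primitive streak state. The 4 genotypes had 2 libraries each: wild-type cells, *Tbxt* Δexon6/Δexon6 cells without exon 6 of *Tbxt* on either allele, *Tbxt* Δexon6/+ cells without it on a single allele, and *Tbxt* insASAY/insASAY cells with the human AluY and AluSx1 elements inserted around that exon on both alleles. *Tbxt*, also called Brachyury, encodes a T-box transcription factor of the primitive streak. The *Tbxt* Δexon6/Δexon6 libraries are from different clones, and how many clones stand behind the other genotypes is not given in the sources used here. In the fit of all libraries, p-values rest on a spread estimated over all genotypes, which takes in the difference between these clones. Where other replicates share a clone, their part of that spread is between cultures of it.

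Each library held 24618587 to 28445952 reads on genes. *Tbxt* had 22 to 54 reads in every library, and a count over the whole gene does not check the deletion of 1 exon. Summed over 12 ES cell markers, levels were 1899 to 1918 CPM (reads scaled to a common library size) in wild-type cells, from 1290 to 1528 in *Tbxt* Δexon6/Δexon6, 1460 to 1513 in *Tbxt* Δexon6/+ and 1506 to 1556 in *Tbxt* insASAY/insASAY libraries, with none of the markers at 0. Of the 12, 5 were called lower in *Tbxt* Δexon6/Δexon6, 7 lower and 2 higher in *Tbxt* Δexon6/+, and 3 lower in *Tbxt* insASAY/insASAY, beside 12.7%, 13.5% and 21.3% of all tested genes. *Dppa5a*, at a mean of 544 CPM in wild-type and 200.3, 182 and 270.3 CPM in these lines, was called lower in all 3, and *Sox2* and *Lin28a* were the pair called higher. In bulk RNA, fewer cells of a type and less RNA per cell cannot be told apart.

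Genomic imprinting is the expression of a gene from the copy of a single parent. In this domain the promoter of *Kcnq1ot1*, a long non-coding RNA transcribed antisense to *Kcnq1*, lies in an imprinting control region that carries DNA methylation on the maternal chromosome. The unmethylated paternal copy is transcribed, and the paternal copies of *Cdkn1c*, *Slc22a18*, *Phlda2* and *Kcnq1* are silenced in the embryo, while genes farther out, such as *Ascl2*, *Cd81*, *Tssc4* and *Osbpl5*, show imprinting mainly in the placenta. The line is inbred and the counts do not separate the parental copies, so the values below are sums over both.

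On GRCm38 the 10 genes span chromosome 7 from base 142966829, the end of *Ascl2*, to base 143756985, the start of *Osbpl5*. *Kcnq1ot1* was annotated on the minus strand at chr7:143203458-143296549, inside *Kcnq1* on the plus strand at chr7:143106362-143427042. *Cdkn1c* lay on the minus strand at chr7:143458339-143461050, *Slc22a18* on the plus strand at chr7:143473736-143499334 and *Phlda2* on the minus strand at chr7:143501545-143503150.

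No promoter sequence was at hand for *Cdkn1c*, *Kcnq1* or *Nap1l4*. Promoter sequences of the other 7 genes were found in RefSeq for GRCm38.p6, each as 250 bases before and 50 after the RefSeq start. That start differs from the GENCODE M21 start by 119 bases in *Tssc4*, 53 in *Slc22a18* and 626 in *Phlda2*, whose window lies wholly inside the GENCODE gene. Shown here are the promoter of the antisense RNA, whose level in *Tbxt* Δexon6/Δexon6 cells was near wild-type, and the bases upstream of *Slc22a18* and *Ascl2*, which were low there. They lie at chr7:143296498-143296797 on the minus strand, chr7:143473539-143473735 on the plus strand and chr7:142969265-142969514 on the minus strand. Capitals mark CCAAT or its reverse complement ATTGG.
Kcnq1ot1: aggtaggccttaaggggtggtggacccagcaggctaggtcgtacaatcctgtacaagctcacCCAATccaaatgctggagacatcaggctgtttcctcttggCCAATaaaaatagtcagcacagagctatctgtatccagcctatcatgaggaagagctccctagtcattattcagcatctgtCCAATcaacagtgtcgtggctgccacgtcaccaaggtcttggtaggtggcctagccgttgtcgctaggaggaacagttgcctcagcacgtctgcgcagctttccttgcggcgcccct
Slc22a18: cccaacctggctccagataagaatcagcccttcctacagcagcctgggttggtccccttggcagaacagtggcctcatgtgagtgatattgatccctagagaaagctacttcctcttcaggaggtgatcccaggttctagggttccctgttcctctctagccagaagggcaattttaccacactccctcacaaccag
Ascl2: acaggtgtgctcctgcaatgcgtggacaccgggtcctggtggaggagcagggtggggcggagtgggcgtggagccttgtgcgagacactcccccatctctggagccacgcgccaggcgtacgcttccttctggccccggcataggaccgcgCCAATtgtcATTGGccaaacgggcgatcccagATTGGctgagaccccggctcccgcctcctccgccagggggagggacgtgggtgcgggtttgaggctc

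Over the whole window of 300 bases, the *Kcnq1ot1* promoter held 9 CG dinucleotides and *Slc22a18* 2, against a median of 7 over the 32851 promoters of the table. *Ascl2*, *Cd81* and *Tssc4* each held 23, *Osbpl5* 16, and the window inside *Phlda2* 26. CCAAT, on either strand, occurred 3 times in *Kcnq1ot1* and 3 times in *Ascl2*, once each in *Tssc4*, *Phlda2* and *Osbpl5*, and was not found in *Slc22a18* or *Cd81*. It was present in 37.4% of all promoters in the table. GGGCGG, on either strand, occurred 3 times in *Cd81*, 2 times in *Phlda2* and once in *Ascl2*, and was found in 35.7% of all promoters. TGCCGC, searched on both strands and present in 11.6% of all promoters, was found in none of these 7 windows. Of the genes that were low in *Tbxt* Δexon6/Δexon6 cells, *Slc22a18* had a promoter with few CG and *Ascl2* one with many. The window inside *Phlda2*, also low, held many as well, and *Cdkn1c* and *Kcnq1* had no promoter to count.

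In *Tbxt* Δexon6/Δexon6 cells, *Cdkn1c*, *Kcnq1*, *Slc22a18*, *Phlda2* and *Ascl2* were lower than in wild-type, from 3.97% to 45.4% of the wild-type mean, while *Kcnq1ot1* and 4 other genes of the domain stayed between 88.6% and 126% of it. The low genes were not contiguous: *Cd81* and *Tssc4* lie between *Ascl2* and *Kcnq1*. Of the 10 genes, 5 passed the thresholds used for all genes (an adjusted p below 0.05 with a log2 fold change beyond 0.5 either way), all 5 of them lower, beside 12.7% of all tested genes in either direction. Since this contrast selected the domain, nothing is read from that count. The median log2 fold change of the 10 genes was -0.655, beside -0.01 over all tested genes.

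*Cdkn1c* encodes p57Kip2, an inhibitor of cyclin-dependent kinases that holds cells out of the cycle. Its level was 77.1 and 76.8 CPM in wild-type libraries, 5.91 and 3.15 in *Tbxt* Δexon6/Δexon6 cells, 72.7 and 69.6 in *Tbxt* Δexon6/+, and 87.6 and 88.5 in *Tbxt* insASAY/insASAY. Only the *Tbxt* Δexon6/Δexon6 libraries were far below the others. Their mean was 5.89% of the wild-type mean, a log2 fold change of -4.10 (SE 0.142), from 146 and 86 reads.

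*Slc22a18*, next to *Cdkn1c*, encodes a membrane transporter of the organic cation transporter family. It was at 5.20 and 5.36 CPM in wild-type, 0.972 and 0.587 in *Tbxt* Δexon6/Δexon6 cells, 3.86 and 4.29 in *Tbxt* Δexon6/+, and 5.17 and 5.71 in *Tbxt* insASAY/insASAY libraries. For this gene only the *Tbxt* Δexon6/Δexon6 libraries were below 1 CPM. Their log2 fold change from wild-type was -2.77 (SE 0.22).

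*Phlda2*, a pleckstrin homology domain protein that limits placental growth, was at 60.1 and 68.1 CPM in wild-type, 17.5 and 14.3 in *Tbxt* Δexon6/Δexon6 cells, 44.1 and 46.2 in *Tbxt* Δexon6/+, and 50.3 and 53.9 in *Tbxt* insASAY/insASAY libraries. All mutant libraries lay below both wild-type libraries, and those of *Tbxt* Δexon6/Δexon6 lay lowest, with a log2 fold change of -2.01 (SE 0.0942).

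*Kcnq1*, the voltage-gated potassium channel gene that hosts the antisense RNA, was low in every genotype. It had 49 and 32 reads in wild-type, 2 and 1 in *Tbxt* Δexon6/Δexon6 cells, 54 and 30 in *Tbxt* Δexon6/+, and 29 and 31 in *Tbxt* insASAY/insASAY libraries. The 3 reads of *Tbxt* Δexon6/Δexon6 against 81 of wild-type, corrected for depth, give a ratio of 3.89% (exact 95% interval 0.786% to 11.8%, counting error only).

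*Ascl2*, a basic helix-loop-helix transcription factor of trophoblast, was at 2.85 and 2.31 CPM in wild-type, 1.13 and 1.21 in *Tbxt* Δexon6/Δexon6 cells, 2.76 and 3.56 in *Tbxt* Δexon6/+, and 2.92 and 2.89 in *Tbxt* insASAY/insASAY libraries. Its difference was the smallest of the 5, a log2 fold change of -1.14 (SE 0.228) and 45.4% of the wild-type mean. The sum of 12 trophoblast markers, *Ascl2* among them, was 74.8 to 81.3 CPM in wild-type cells, from 64.1 to 65.8 in *Tbxt* Δexon6/Δexon6, 61.9 to 65.7 in *Tbxt* Δexon6/+ and 60.01 to 64.2 in *Tbxt* insASAY/insASAY libraries. *Elf5*, *Tpbpa* and *Prl3d1* were at 0 in all 3 mutant lines, and *Tpbpa* and *Prl3d1* in wild-type too. Of the 9 tested trophoblast markers, 1 was called higher and 4 lower in *Tbxt* Δexon6/Δexon6, 1 higher and 3 lower in *Tbxt* Δexon6/+, and 1 higher and 4 lower in *Tbxt* insASAY/insASAY, beside 12.7%, 13.5% and 21.3% of all tested genes. The one called higher was *Eomes* in *Tbxt* Δexon6/Δexon6 (0.54) and *Cdx2* in the other lines (3.06 and 1.78, adjusted p of 0.00017 and 0.0118). *Cdx2* had only 3 and 9 reads in wild-type, 54 and 41 in *Tbxt* Δexon6/+ and 25 and 17 in *Tbxt* insASAY/insASAY libraries.

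*Kcnq1ot1*, the antisense RNA itself, was at 14.9 and 11.4 CPM in wild-type, 13.6 and 10.8 in *Tbxt* Δexon6/Δexon6 cells, 15.0 and 17.0 in *Tbxt* Δexon6/+, and 9.11 and 9.00 in *Tbxt* insASAY/insASAY libraries. The *Tbxt* Δexon6/Δexon6 and wild-type libraries overlapped, with a log2 fold change of -0.109 (SE 0.14) that ran from -0.288 to 0.098 when each library was left out in turn. The lowest levels of the antisense RNA were in the *Tbxt* insASAY/insASAY libraries.

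**Figure D1:**
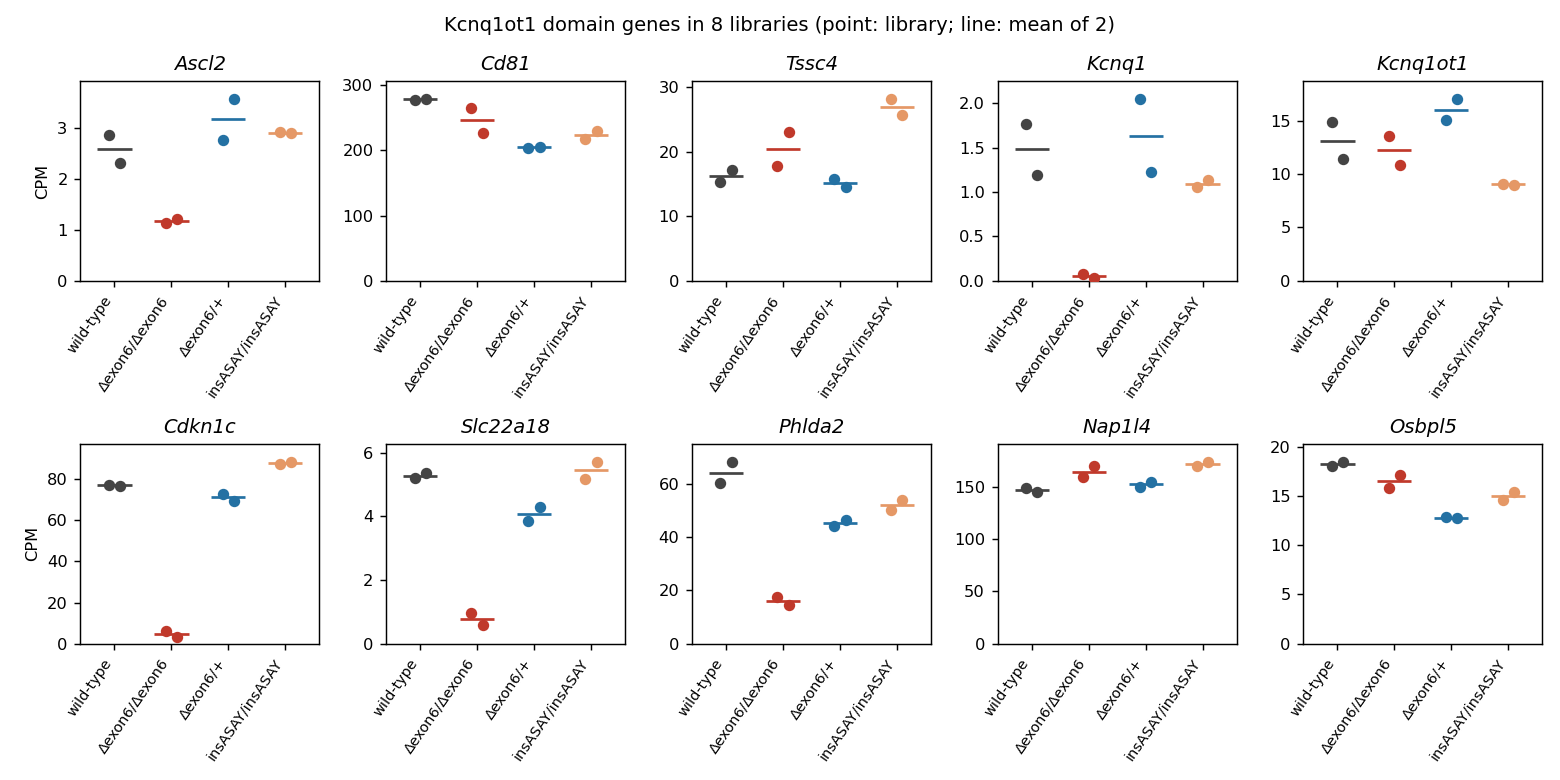
Level of each of the 10 genes in CPM (y axis, from 0) by genotype. Each point is a library and each line the mean of 2 libraries. The *Tbxt* Δexon6/Δexon6 points of *Cdkn1c*, 5.91 and 3.15 CPM, stand far below the other 6 libraries, while those of *Kcnq1ot1*, 13.6 and 10.8 CPM, overlap the wild-type points at 14.9 and 11.4.

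The other 4 genes varied less between *Tbxt* Δexon6/Δexon6 and wild-type cells. *Cd81*, a tetraspanin of the cell surface, was at 277 and 278 CPM in wild-type and 265 and 227 in *Tbxt* Δexon6/Δexon6 libraries, a log2 fold change of -0.18 (SE 0.0625). *Tssc4*, which encodes a factor of spliceosome assembly, was at 15.3 and 17.1 CPM in wild-type and 17.8 and 23.1 in *Tbxt* Δexon6/Δexon6 libraries, a log2 fold change of 0.34 (SE 0.117). Without the first *Tbxt* Δexon6/Δexon6 clone that value was 0.51, and without the second it was 0.13. *Nap1l4*, a histone chaperone, stood at 149 and 145 CPM against 159 and 170, and *Osbpl5*, an oxysterol-binding protein relative, at 18.1 and 18.5 CPM against 15.8 and 17.2.

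Both clones without exon 6 held the same 5 genes below wild-type, at different depths. *Cdkn1c* was at 7.68% of the wild-type mean in the first clone and 4.10% in the second, and *Slc22a18* at 18.4% and 11.1%. *Phlda2* was at 27.4% and 22.4%, and *Ascl2* at 44.0% and 46.9%. The second clone was lower by 0.89 (*Cdkn1c*, 146 and 86 reads) and 0.661 (*Slc22a18*, only 24 and 16 reads) in log2 CPM. Over all tested genes, most of which were not chosen for low counts, the median difference in size was 0.158. With 1 library per clone these differences have no replicate check. Over leaving out each library, the log2 fold change of *Cdkn1c* ran from -4.60 to -3.70 and that of *Phlda2* from -2.15 to -1.87.

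**Figure D2:**
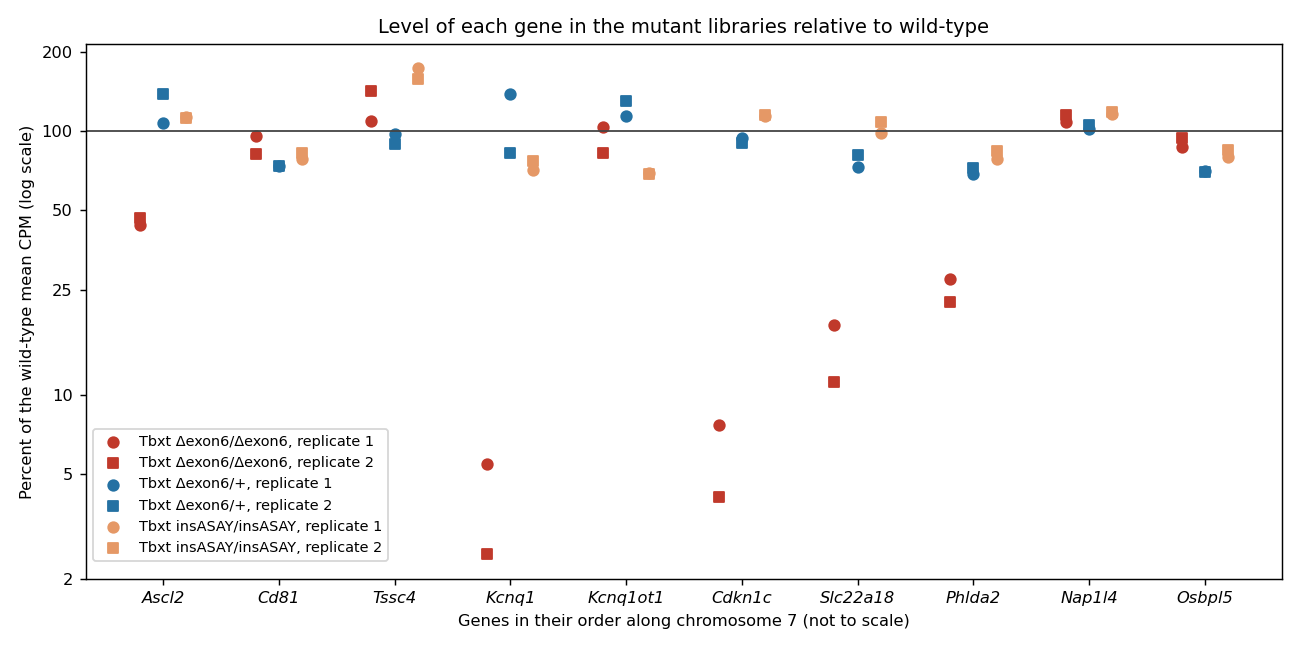
Level of each gene in each mutant library as a percent of the wild-type mean CPM (log y axis), in gene order along the chromosome. *Kcnq1*, *Cdkn1c*, *Slc22a18*, *Phlda2* and *Ascl2* lie at 2.48% to 46.9% in the *Tbxt* Δexon6/Δexon6 libraries, and *Kcnq1ot1* at 104% and 82.4%. The points of *Kcnq1* in that line rest on 2 and 1 reads.

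Per kilobase of exon, the wild-type order of mean levels was *Cd81* (96.5 CPM per kb), *Phlda2* (57.2), *Nap1l4* (47.5), *Cdkn1c* (37.8), *Tssc4* (8.80), *Osbpl5* (3.72), *Slc22a18* (3.11), *Ascl2* (1.59), *Kcnq1* (0.361) and *Kcnq1ot1* (0.141), and no neighbours in that order overlapped between libraries. In *Tbxt* Δexon6/Δexon6 cells *Cdkn1c* (2.22) ranked below *Tssc4* and *Osbpl5*, *Slc22a18* (0.459) below *Ascl2* (0.722), and *Kcnq1* (0.0144) below *Kcnq1ot1* (0.131). *Phlda2* ranked below *Nap1l4* in all 3 mutant lines. *Kcnq1ot1* was scaled by the 93092 bases of GENCODE M21, whose model of it is a later version than that in the files, and libraries were selected for poly(A) RNA.

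Beyond the listed genes, *H19* was higher and *Igf2* lower in *Tbxt* Δexon6/Δexon6 cells. *H19* was also called higher in *Tbxt* Δexon6/+ (1.499) and *Tbxt* insASAY/insASAY cells (1.225), and *Igf2* in neither. The *Tbxt* Δexon6/Δexon6 clones held *H19* at 118.5 and 193.4 CPM. Among the 21 other tested genes that start within 1000 kb of *Kcnq1ot1*, 4 (19%) passed both thresholds in *Tbxt* Δexon6/Δexon6 against wild-type, beside 12.7% of all tested genes. *Gm44732*, antisense to *Cdkn1c*, had 8 and 15 reads in wild-type and 2 and 0 in *Tbxt* Δexon6/Δexon6 libraries. The paternally expressed growth factor gene *Igf2* had a log2 fold change of -0.93 (SE 0.0839). The maternally expressed non-coding RNA *H19* had one of 2.00 (SE 0.182), and *Gm27483*, inside *H19*, had 5 and 3 reads against 10 and 25. Of these 4 genes, *Gm27483* passed the filter on low counts only through the *Tbxt* Δexon6/Δexon6 libraries, where it was high. *Gm44732* passed it only through the other groups. Nothing is read from the share of 19%. *H19* and *Igf2* belong to a neighbouring imprinted domain with its own control region. *Igf2* starts at -629.7 kb and *H19* at -718.4 kb from the start of *Kcnq1ot1*.

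**Figure D3:**
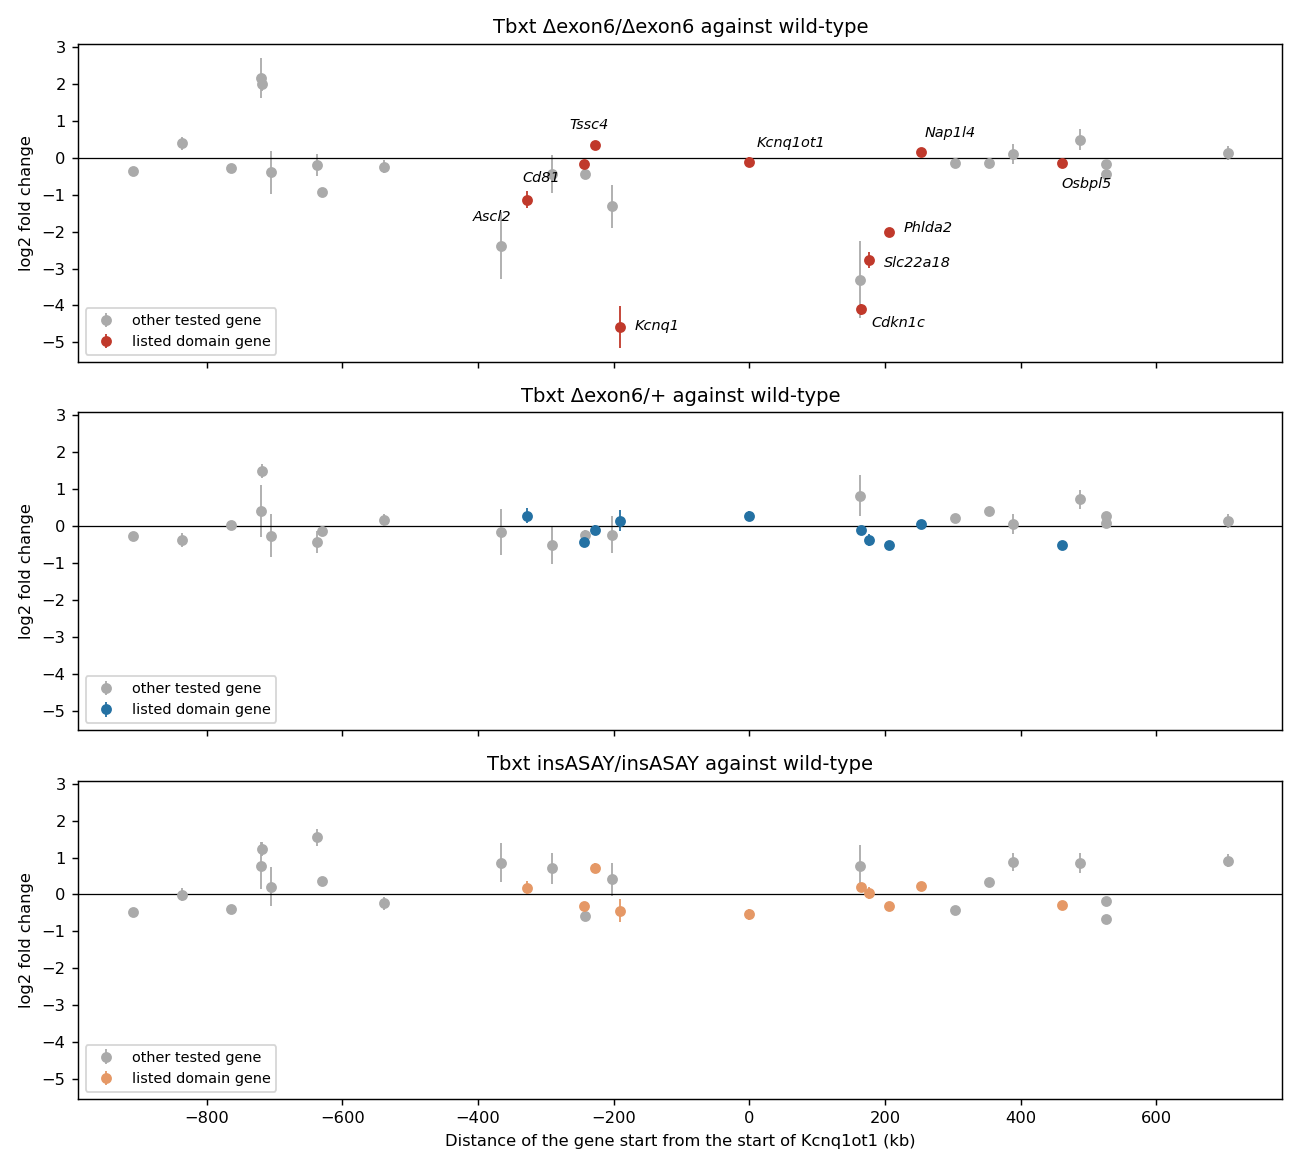
log2 fold change against wild-type (y axis, with SE bars) of the 31 tested genes within 1000 kb of *Kcnq1ot1*, by distance of the gene start in kb (x axis). Coloured points are the 10 listed genes, named in the upper panel, and grey points are other genes. A value of -4.10, at *Cdkn1c*, appears in the upper panel alone, and the value of *Kcnq1* there rests on 3 reads.

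The levels of *Cdkn1c* over all 8 libraries were most like those of *Slc22a18* and *Phlda2*. Among 12837 genes whose mean over all libraries reached 2 CPM, the smallest root mean square differences in log2 CPM, each profile centred on wild-type, were those of *Slc22a18* (0.743) and *Phlda2* (1.12). *Abcg1*, a cholesterol exporter gene on chromosome 17, followed at 1.34, then *Tie1*, an endothelial receptor tyrosine kinase gene, at 1.37 and *Aqp3*, a water channel gene, at 1.39, both on chromosome 4. *Ascl2* ranked 28, *Cd81* 3275, *Osbpl5* 4158, *Kcnq1ot1* 5324, *Nap1l4* 8719 and *Tssc4* 11046, and *Kcnq1* was under the minimum level. *Slc22a18*, *Abcg1*, *Tie1* and *Aqp3* were below 2 CPM in both *Tbxt* Δexon6/Δexon6 libraries and passed the minimum through other groups. *Abcg1* was at 4.66 and 4.21 CPM in wild-type and 1.66 and 0.587 in *Tbxt* Δexon6/Δexon6 libraries, but also at 1.39 and 1.68 in *Tbxt* insASAY/insASAY, where *Cdkn1c* was high. These likenesses rest mostly on the *Tbxt* Δexon6/Δexon6 libraries that selected *Cdkn1c*, and carry no test.

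**Figure D4:**
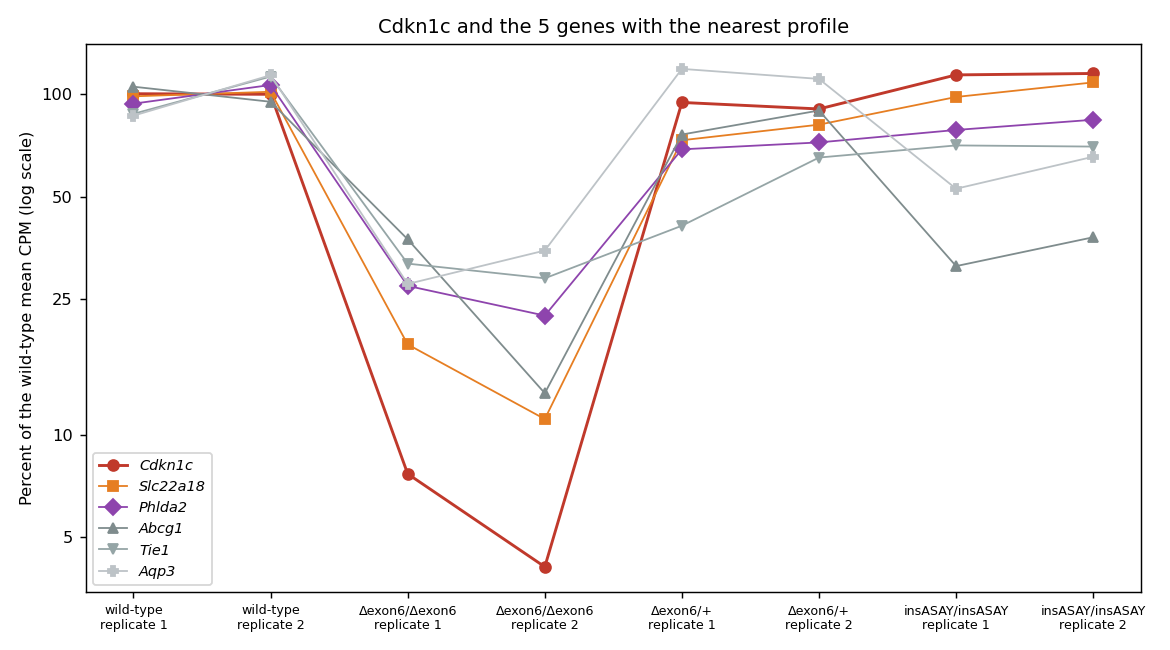
Level of *Cdkn1c* and the 5 genes nearest to it, as a percent of each gene's wild-type mean CPM (log y axis), in each library. Lines only join the points of a gene. *Slc22a18* and *Phlda2* return to 73.2% or more and 68.8% or more in the *Tbxt* Δexon6/+ and *Tbxt* insASAY/insASAY libraries, while *Abcg1* stays low in *Tbxt* insASAY/insASAY, at 1.39 and 1.68 CPM.

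In *Tbxt* Δexon6/+ cells, *Phlda2* and *Osbpl5* fell modestly and the other 8 genes did not pass both thresholds. That is 2 of 10 genes called, both lower, beside 13.5% of all tested genes. *Phlda2* had a log2 fold change of -0.505 (SE 0.085, adjusted p = 0.000585), and both its libraries lay below both of wild-type. *Osbpl5* was at 12.9 and 12.8 CPM against 18.1 and 18.5 in wild-type, a log2 fold change of -0.512 (SE 0.0887, adjusted p = 0.000724). Both values are just past the fold threshold: the call of *Phlda2* was lost without the second wild-type library (-0.413), without the first *Tbxt* Δexon6/+ library (-0.472), in DESeq2 (-0.497) and with its size factors (-0.498), and that of *Osbpl5* without the second wild-type library (-0.496). TREAT, which tests for a change beyond the fold threshold, called neither.

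*Cdkn1c* did not pass in *Tbxt* Δexon6/+ cells in the fit of all libraries, whose spread takes in both *Tbxt* Δexon6/Δexon6 clones. Its log2 fold change was -0.113 (SE 0.102, adjusted p = 0.438), with both libraries below both of wild-type. Groups did not overlap for 69.3% of all tested genes in this comparison. *Slc22a18* had -0.374 (SE 0.165, adjusted p = 0.104), and *Kcnq1ot1* 0.284 (SE 0.136, adjusted p = 0.133). The value of *Kcnq1ot1* ran from 0.104 to 0.489 when each library was left out in turn. With only the 2 groups compared in edgeR, the adjusted p was 0.0497 for *Cdkn1c*, 0.0372 for *Slc22a18* and 0.0319 for *Kcnq1ot1*. Their fold changes there were under the fold threshold. *Cd81*, at 204 and 205 CPM, had -0.441 (SE 0.0629, adjusted p = 0.000167), which is past the p threshold but not the fold threshold. *Kcnq1*, *Ascl2*, *Tssc4* and *Nap1l4* ranged from -0.096 to 0.287 with adjusted p of 0.291 to 0.738.

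In *Tbxt* insASAY/insASAY cells, *Tssc4* rose and *Kcnq1ot1* fell, 2 of 10 genes called beside 21.3% of all tested genes. *Tssc4* was at 28.1 and 25.7 CPM against 15.3 and 17.1 in wild-type, a log2 fold change of 0.728 (SE 0.114, adjusted p = 0.000225) that stayed between 0.649 and 0.806 over the alternatives, though its call was lost in TREAT. *Kcnq1ot1* was at 9.11 and 9.00 CPM against 14.9 and 11.4, a log2 fold change of -0.537 (SE 0.143, adjusted p = 0.00793). Its call was lost in TREAT too, and without the first wild-type library, at -0.332, and the adjusted p ran from 3.49e-05 to 0.13 over the alternatives that test for any change.

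*Cdkn1c* was at 87.6 and 88.5 CPM in *Tbxt* insASAY/insASAY libraries, both above wild-type. Its log2 fold change of 0.193 (SE 0.1, adjusted p = 0.133) did not pass in the fit of all libraries. The spread of that fit takes in both *Tbxt* Δexon6/Δexon6 clones. The adjusted p was 0.000432 with only the 2 groups compared, 0.0188 with no filter on low counts and 0.612 in DESeq2. The fold change stayed under the fold threshold in each of these. The other genes of the inner domain gave -0.299 for *Phlda2* (adjusted p = 0.0104, under the fold threshold), 0.044 for *Slc22a18* (adjusted p = 0.839) and -0.435 for *Kcnq1* (adjusted p = 0.263). The value of *Kcnq1* ran from -0.691 to -0.122 when each library was left out in turn. *Cd81*, *Nap1l4* and *Osbpl5* were past the p threshold only, at -0.313, 0.225 and -0.284. *Ascl2* gave 0.169 (adjusted p = 0.502).

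*Tssc4* and *Kcnq1ot1* also differed between the insertion and the heterozygous deletion. Between *Tbxt* insASAY/insASAY and *Tbxt* Δexon6/+ cells, 2 of 10 genes were called, beside 27.5% of all tested genes. *Tssc4* was higher in *Tbxt* insASAY/insASAY by a log2 fold change of 0.824 (SE 0.116, adjusted p = 6.67e-05), and *Kcnq1ot1* lower, by -0.821 (SE 0.142, adjusted p = 0.000331). At an adjusted p below 0.05 whatever the fold there were 6 of 10 genes, beside 52.9% of all tested genes. *Cdkn1c*, among these, gave 0.306 (SE 0.101, adjusted p = 0.0215), with 72.7 and 69.6 against 87.6 and 88.5 CPM. Without the second *Tbxt* Δexon6/+ library *Kcnq1* was called as well, at -0.899.

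The factors known to silence or to keep imprints were set beside the domain as a list of 22, all tested. In *Tbxt* Δexon6/Δexon6 against wild-type, 2 of the 22 passed both thresholds, beside 12.7% of all tested genes: *Dppa3*, which protects maternal methylation in the early embryo, at -1.14 (SE 0.135), and *Tet2*, which oxidizes 5-methylcytosine, at -0.75 (SE 0.143). In *Tbxt* Δexon6/+ cells 6 passed, 2 higher and 4 lower, beside 13.5% of all tested genes. *Setdb1*, a histone H3 lysine methyltransferase, rose by 0.509 (adjusted p = 1.03e-05) and *Tet2* by 0.711 (adjusted p = 0.00106), and *Dppa3* fell by 1.34 (adjusted p = 1.17e-05). *Suz12*, a core subunit of Polycomb repressive complex 2, fell by 0.593 (adjusted p = 8.89e-05), and *Dnmt3l*, a cofactor of de novo DNA methylation, by 0.749 (adjusted p = 0.000372). *Zfp57*, a zinc finger protein that binds methylated imprinting control regions, fell by 0.619 (adjusted p = 0.000421). In *Tbxt* insASAY/insASAY cells 4 passed, all lower, beside 21.3% of all tested genes: *Suz12* (-0.559), *Zfp57* (-0.567), *Tet2* (-0.699) and *Dppa3* (-0.605), with adjusted p of 9.52e-05, 0.000488, 0.00131 and 0.00196. Whether any of these factors has a part in the levels of the domain was not tested.

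A list of 13 genes held cyclins, cyclin-dependent kinases, the other Cip/Kip inhibitors and *Pcna*, the sliding clamp of DNA replication. Of these, 1 passed both thresholds in *Tbxt* Δexon6/Δexon6 against wild-type, beside 12.7% of all tested genes. This was *Ccne2*, cyclin E2, at 0.73 (SE 0.154). In *Tbxt* Δexon6/+ cells 3 passed, beside 13.5% of all tested genes: *Cdkn1a*, which encodes the inhibitor p21, fell by 0.597 (adjusted p = 1.76e-06), *Cdk6* fell by 0.568 (adjusted p = 4.57e-05) and *Ccnd2* rose by 0.626 (adjusted p = 0.000257). In *Tbxt* insASAY/insASAY cells 2 passed, beside 21.3% of all tested genes: *Ccnd1* rose by 0.783 (adjusted p = 0.000112) and *Ccne2* by 0.903 (adjusted p = 0.000369). The list's median log2 fold change was 0.244, -0.015 and 0.32 in the 3 lines.

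Markers of other cell types also differed between lines, and their part in the levels of *Cdkn1c* was not tested. The summed level of 12 embryonic fibroblast (feeder) markers was 71.8 to 81.1 CPM in wild-type cells, from 51.2 to 53.9 in *Tbxt* Δexon6/Δexon6, 93.7 to 99.6 in *Tbxt* Δexon6/+ and 44.5 to 45.4 in *Tbxt* insASAY/insASAY libraries. *Fbln2* alone was at 23.7 to 26.1 CPM in wild-type and 47.4 to 50.8 in *Tbxt* Δexon6/+ libraries, and without it the sums were 48.04 to 55.1 and 46.3 to 48.8 CPM. The differentiation was carried out without feeder cells. By the paper's methods, exon 6 was deleted in cells grown without feeders, and the Alu elements were inserted in cells grown on them. Feeder culture thus went with the kind of edit, and their parts cannot be told apart here. Of the 8 tested fibroblast markers, 3 were called lower in *Tbxt* Δexon6/Δexon6, 3 higher and 2 lower in *Tbxt* Δexon6/+, and 6 lower in *Tbxt* insASAY/insASAY, beside 12.7%, 13.5% and 21.3% of all tested genes. *S100a4* was at 0 in every group and *Postn* in *Tbxt* insASAY/insASAY. The sum of 12 primitive endoderm markers was 601 to 653 CPM in wild-type cells, between 630 and 635 in *Tbxt* Δexon6/Δexon6 libraries, and 559 to 583 in *Tbxt* insASAY/insASAY and 560 to 627 in *Tbxt* Δexon6/+, with *Ttr* at 0 in all 4 groups. *Sparc*, at 370 to 517 CPM, makes up most of these sums. Of the 10 tested markers of this list, 2 were called in *Tbxt* Δexon6/Δexon6, *Gata4* (-0.67) and *Lama1* (-0.62), and 3 in *Tbxt* Δexon6/+, where *Dab2* rose by 0.997, *Foxa2* by 1.47 and *Lama1* by 0.761 (adjusted p of 0.000327, 0.0176 and 0.000253). None was called in *Tbxt* insASAY/insASAY. The shares of all tested genes called in these 3 comparisons were again 12.7%, 13.5% and 21.3%.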

How the data were processed

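Poly(A) RNA was sequenced from 8 libraries with a strand-specific kit. The authors mapped reads to mm10 with STAR 2.7.2a and deposited whole-number counts per gene, without normalization. Counts in the last column, for reverse-stranded libraries, were used, since the other strand held 4.11% to 4.78% of reads assigned to either. Groups follow the labels. Symbols and coordinates came from GENCODE M21 (48058 of 48440 identifiers matched, 40606 in the same version).

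The fit used edgeR 4.0.16 under R 4.3.3, after filterByExpr (minimum count 10, total 15) and TMM scaling, as 1 quasi-likelihood model of all libraries, with Benjamini-Hochberg adjustment over 17049 genes. A call needed an adjusted p below 0.05 with a log2 fold change beyond 0.5 either way. CPM use TMM-scaled library sizes, and profiles a prior count of 2. The script was tested on simulated data. The listed genes, gene lists and tests were chosen with earlier results of these data known. All 10 genes are named, with the 5 nearest to *Cdkn1c*, up to 4 called genes per list and comparison and all called genes within 1000 kb. *Tet2* and *Zfp57* in *Tbxt* Δexon6/+ were named in addition after their values were seen. Alternatives used DESeq2 1.42.0, limma 3.58.1 under edgeR, other filters, strands and groups, a replicate block, TREAT and each library left out. Tables and plots used Python 3.11.15, pandas 2.3.3 and matplotlib 3.10.9. The depth limits *Kcnq1*, with 54 reads at most in a library.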

Additional observations from a re-analysis of the deposited data

Results flagged for a closer look

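The effect on 6 of 10 genes differed between the insertion and the heterozygous deletion, beside 52.9% of all tested genes at the same adjusted p. That is near the share of all tested genes, so nothing is read from the count. The test was of *Tbxt* insASAY/insASAY against *Tbxt* Δexon6/+ in edgeR, which equals the difference of the effects against the shared wild-type. On the log2 scale the differences were 0.824 for *Tssc4*, -0.821 for *Kcnq1ot1*, 0.306 for *Cdkn1c*, 0.418 for *Slc22a18*, 0.175 for *Nap1l4* and 0.228 for *Osbpl5*, with adjusted p of 6.67e-05, 0.000331, 0.0215, 0.047, 0.0074 and 0.0483. Only the first pair also passed the fold threshold of 0.5. Over the alternatives other than TREAT the adjusted p of *Cdkn1c* rose to 0.387, that of *Slc22a18* to 0.227, that of *Nap1l4* to 0.0718 and that of *Osbpl5* to 0.24, so these 4 did not hold under every alternative. The highest adjusted p was 0.0066 for *Kcnq1ot1* and 0.00211 for *Tssc4*.

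*Ascl2* and *Cdkn1c* were below wild-type in both *Tbxt* Δexon6/Δexon6 libraries and above it in both *Tbxt* insASAY/insASAY libraries. In the edgeR fit of all libraries neither passed in the latter line (0.169, adjusted p = 0.502, and 0.193, adjusted p = 0.133). With only the 2 groups compared in edgeR, *Cdkn1c* gave 0.195 (adjusted p = 0.000432), under the fold threshold. Groups did not overlap for 67.6% and 77% of all tested genes in these comparisons with wild-type. The effects differed by 1.30 for *Ascl2* and 4.29 for *Cdkn1c* on the log2 scale, and this difference was not tested, since the *Tbxt* Δexon6/Δexon6 values selected the domain.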

How the results depend on the processing

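In *Tbxt* Δexon6/+ against wild-type, the 2 called genes became 1 in DESeq2, 1 with DESeq2's size factors and 0 in TREAT, which tests for a change beyond the fold threshold, and 0 to 2 when each library was left out. In *Tbxt* insASAY/insASAY against wild-type they became 0 in TREAT and 1 to 2 with each library left out. Leaving out a library also turned the sign of 4 uncalled values: *Kcnq1ot1* in *Tbxt* Δexon6/Δexon6 ran from -0.288 to 0.098, *Kcnq1* in *Tbxt* Δexon6/+ from -0.274 to 0.464, *Slc22a18* in *Tbxt* insASAY/insASAY from -0.031 to 0.113, and *Ascl2* between these lines from -0.294 to 0.069. The cause was not tested. In *Tbxt* Δexon6/Δexon6 against wild-type TREAT left 4 genes in place of 5, without *Ascl2*, which is a description, since this contrast selected the domain. Over all genes it called 267, 775, 1215 and 2192 genes in the 4 comparisons, in place of 2167, 2299, 3639 and 4696, and leaving out the first or the second *Tbxt* Δexon6/Δexon6 clone gave 3388 and 1149 in place of 2167. With replicate number as a replicate block the called members stayed at 5, 2, 2 and 2. The numbers share only a name (r of deviations across genes -0.01 to 0.049). At least 10 counts in every library removed *Kcnq1*.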

Other observations

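The count of *Cdkn1c* depended on the use of strand. In wild-type it had 2137 and 2065 reads on its own strand and 844 and 765 without regard to strand, since STAR leaves out reads that fall on overlapping genes, here *Gm44732*. In *Tbxt* Δexon6/Δexon6 libraries the counts were 146 and 86 with strand, and 59 and 42 without. *Kcnq1ot1*, which overlaps *Kcnq1*, had 412 and 306 reads in wild-type with strand, and 412 and 310 without.

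Of the 21 other tested genes within 1000 kb of *Kcnq1ot1*, 1 (4.76%) was called in *Tbxt* Δexon6/+ cells and 7 (33.3%) in *Tbxt* insASAY/insASAY cells against wild-type, beside 13.5% and 21.3% of all tested genes. *H19* rose in *Tbxt* Δexon6/+ by 1.499 (edgeR adjusted p = 4.72e-05) and in *Tbxt* insASAY/insASAY by 1.23 (adjusted p = 0.000161) on the log2 scale. *Igf2* gave -0.132 and 0.356 in these lines (adjusted p of 0.239 and 0.00236) and was called in neither. In *Tbxt* insASAY/insASAY cells *Igf2os*, antisense to *Igf2*, had 64 and 60 reads against 21 and 21 in wild-type, and *Dhcr7*, the last enzyme of cholesterol synthesis, fell by 0.675 (adjusted p = 3.58e-05). *R74862*, antisense at the start of *Cd81*, fell by 0.589 (adjusted p = 0.00332), and *Tnfrsf23*, *Mrgpre* and *Shank2* rose by 0.872, 0.857 and 0.915 (adjusted p of 0.011, 0.0166 and 0.0012).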
